A study of Mus musculus with 4 samples.

Results

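Genes of mitosis and the kinetochore were examined in mice with an Atg16l1 hypomorph allele and in control mice, in unsorted thymus cells (total thymocytes). The set was defined by 50 gene symbols for the spindle checkpoint, the kinetochore, the mitotic cyclins and kinases, condensin and cytokinesis. Kinesins were left out, except for the kinetochore motor gene Cenpe. A gene counted as a member where at least 1 array probe set (a group of probes for 1 transcript) carried its symbol alone in the platform annotation. Of the 50, 49 did, among 18193 genes named this way on the array. Ccnb1 had no such probe set in that annotation and was not analysed here. Each gene is represented by its brightest probe set, the one with the highest mean over the 4 arrays, and the others are described after it. All 49 passed the filter on dim probe sets, by their mean over all 4 arrays.

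The arrays came from 2 mice with a hypomorphic allele of Atg16l1, an allele with reduced function, and from 2 control mice, which the labels describe as wild type. Atg16l1 encodes a subunit of the complex that couples LC3 family proteins to lipid in autophagy. The mice were 7 weeks old and independent of each other, with 1 male and 1 female in each group, and the labels do not assign sex to the arrays. Strain and allele construction are not stated by the labels. Each array holds the thymocytes of 1 animal, so p-values rest on the spread between 2 animals per group and on a variance model shared across the array.

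Mitosis is driven by CDK1 bound to A and B type cyclins. Kinetochores, protein assemblies built on the centromeric histone CENPA, attach the duplicated chromosomes to spindle microtubules, and the spindle checkpoint holds back the anaphase-promoting complex until all are attached. Most of these genes are transcribed in G2 and M phase, and their transcripts are scarce in resting cells. In the thymus, division is concentrated in early precursors and in the burst that follows pre-T cell receptor signalling, while most double-positive thymocytes are small resting cells. In RNA from unsorted cells, more dividing cells and more transcript per dividing cell cannot be told apart.

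Many promoters of G2 and M phase genes hold CCAAT boxes, the binding motif of NF-Y, and a cell cycle genes homology region, abbreviated CHR, bound by the DREAM and MYB-MuvB complexes. Promoter sequences were taken from RefSeq on the build GRCm38.p6, where 39 of the 49 members had an entry, and the 250 bases before the start were searched on both strands. Only the first entry of each gene was searched. Cenpk had 3 entries, and Bub3, Prc1 and Ect2 had 2 each. CCAAT was present in 29 of 39 members (74.4%), against 37% of 8350 tested genes with an entry and 34.5% of all 27025 genes in the table. A CHR motif, either TTTGAA or TTCGAA, was present in 14 of 39 (35.9%), against 12.3% of tested genes and 17.4% of all. An E2F type motif, TTGGCGC or TTCCCGC, was present in 3 of 39 (7.69%), against 10.7% of tested genes and 5.71% of all. These are matches of letters, not measured binding, and no test was made. TTGGCGC can share letters with ATTGG, the reverse form of CCAAT, and TTCGAA reads the same on both strands.

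All 14 members with a CHR motif also held a CCAAT box, and 7 of the 39 (17.9%) held both within the 100 bases before the start, against 1.11% of tested genes and 1.17% of all. Beside those 14, 25 of the 39 held no CHR motif in the 250 bases of the entry searched. The 7 windows with both motifs are printed because they show them close to the start, a feature of a minority of members that the choice of members did not use. They lie at chr10:69352913-69353012 on the minus strand for Cdk1, chr4:118437344-118437443 on the minus strand for Cdc20, chr2:164769829-164769928 on the plus strand for Ube2c, chr15:102296193-102296292 on the plus strand for Espl1, chr11:99024190-99024289 on the minus strand for Top2a, chr7:131560270-131560369 on the plus strand for Bub3 and chr8:116921640-116921739 on the plus strand for Cenpn. The last base of each precedes the annotated start. Capitals mark the CHR motif (with TTCAAA as its reverse form) and the CCAAT box (with ATTGG as its reverse form).
Cdk1: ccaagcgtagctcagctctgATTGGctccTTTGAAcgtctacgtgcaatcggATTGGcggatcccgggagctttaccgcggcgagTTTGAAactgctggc
Cdc20: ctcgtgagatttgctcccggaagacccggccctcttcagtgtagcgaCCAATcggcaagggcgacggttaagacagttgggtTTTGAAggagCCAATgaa
Ube2c: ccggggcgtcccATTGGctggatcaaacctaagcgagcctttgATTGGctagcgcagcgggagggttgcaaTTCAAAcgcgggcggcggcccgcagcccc
Espl1: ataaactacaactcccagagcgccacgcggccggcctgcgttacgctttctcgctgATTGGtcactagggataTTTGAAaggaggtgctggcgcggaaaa
Top2a: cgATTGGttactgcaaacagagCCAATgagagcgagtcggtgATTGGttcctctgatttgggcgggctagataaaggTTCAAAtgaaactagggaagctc
Bub3: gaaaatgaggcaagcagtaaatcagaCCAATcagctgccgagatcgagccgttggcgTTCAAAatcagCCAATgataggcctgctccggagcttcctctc
Cenpn: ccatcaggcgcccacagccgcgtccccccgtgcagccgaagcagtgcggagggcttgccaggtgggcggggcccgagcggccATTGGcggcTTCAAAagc

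In Cdk1, which encodes the mitotic kinase itself, CHR motifs began 71 and 15 bases before the start, and CCAAT boxes lay at 80 and 48 bases. In Top2a, which encodes the topoisomerase that disentangles sister DNA, the nearest CHR motif began at 23 bases and the nearest CCAAT box at 58. Neighbouring CCAAT boxes 28 to 36 bases apart, a range chosen after the positions were seen, occurred in 8 of the 17 members with more than 1 box (47.1%), against 26.3% of such tested genes and 20.1% of all such genes. Among the 12 members with the smallest p, the 10 with a promoter entry included 1 with a CHR motif, the checkpoint gene Bub1b, and its 250 bases at chr2:118597961-118598210 on the plus strand are printed for that reason. Its CHR motif began 188 bases and its CCAAT box 113 bases before the start.
Bub1b: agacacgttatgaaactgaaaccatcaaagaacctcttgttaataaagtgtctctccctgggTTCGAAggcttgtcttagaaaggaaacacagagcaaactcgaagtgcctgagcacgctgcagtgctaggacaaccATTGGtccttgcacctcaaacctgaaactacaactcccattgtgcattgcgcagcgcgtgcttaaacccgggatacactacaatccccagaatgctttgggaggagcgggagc

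Changes were compared between members with and without each motif, as hypomorph minus control in log2 signal, less the median change of tested genes. The median of this relative change was 0.29 for the 14 members with a CHR motif and 0.43 for the 25 without, and 0.38 for the 29 with a CCAAT box and 0.39 for the 10 without. Cenph and Ndc80, the members with the smallest p-values, held neither motif in the window.

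The median deposited signal ranged from 23.5 to 38.4 between arrays, and was highest on hypomorph replicate 1. Values were therefore taken as log2(signal + 2.29) with every array shifted to 1 median over all probe sets. A change is the hypomorph mean minus the control mean on that scale, and understates that of dim genes. Values after ± are SEs from limma, which rest on 2 arrays per group and on the variance model shared across the array. After centring, the 10232 tested genes still had a median change of 0.21, so a change relative to tested genes has that 0.21 subtracted. Atg16l1 itself had deposited signals of 108 and 70.8 in the hypomorphs against 184 and 241 in the controls, a log2 change of -1.57 ± 0.18 (SE, adjusted p 0.0142 in limma). The 5 general T cell genes of the marker list on the array each reached a signal of at least 1783 on some array, and the 9 double-positive thymocyte genes each reached at least 885.

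Mitosis and kinetochore genes were higher in hypomorph thymocytes nearly throughout the set, by modest amounts, and none passed the adjusted threshold singly. Of 49 members, 48 lay above the median change of tested genes, and their own median lay 0.38 above it on the log2 scale (0.59 before the subtraction). The quartiles of all tested genes lay at -0.14 and 0.12 on the same scale. No member had an adjusted p under 0.05 in limma, where 0.0293% of tested genes were called higher and 0.0195% lower. At an unadjusted p under 0.05, 42 of 49 members were higher and 0 lower, against 18.3% and 0.909% of tested genes. Both hypomorph arrays exceeded both control arrays for 46 of 49 members, against 51.7% of tested genes, and for 0 the order was the opposite, against 4.93%. With 2 arrays in each group, the smallest p that exact permutation allows is 0.333.

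**Figure D1:**
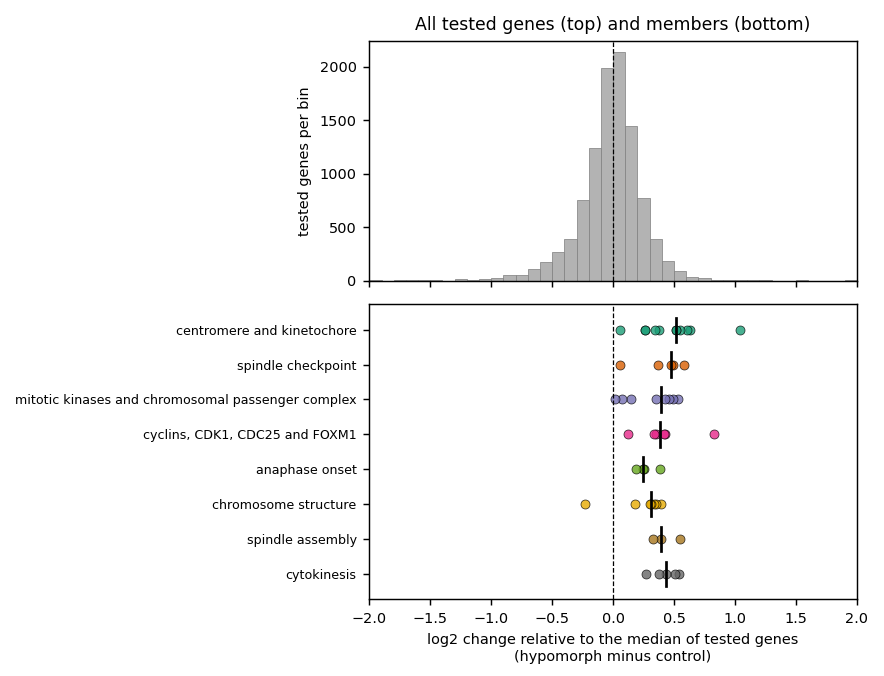
Top, number of tested genes per bin of 0.1 log2 units of change relative to the median of tested genes, with values beyond 2 in either direction placed in the end bins. Bottom, 1 point per member, by role group, with a black bar at the group's median: 48 of 49 points lie right of the dashed line at 0, and Smc4 lies left of it.

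Since the shift of 0.21 enters the counts against 0, the counts were repeated with the shift nearly removed. With arrays centred on the tested probe sets, where tested genes had a median change of 0.04, 37 of 49 members were higher at an unadjusted p under 0.05, against 4.38% of tested genes. Complete separation of the groups was then seen for 41 members, against 24.1%. With quantile normalization, at a median of 0.02, these counts were 35 against 3.41% and 41 against 21.1%. The members' share stayed above that of tested genes under both scalings. Of the 49, 27 had a change above the 95th percentile of tested genes and 38 above the 90th percentile.

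The members were high in both hypomorph animals. The members' median deviation from their own mean was 0.32 and 0.31 on hypomorph replicates 1 and 2 and -0.36 and -0.26 on control replicates 1 and 2, where the same medians over tested genes were 0.07, 0.15, -0.16 and -0.05. The highest of the 4 arrays was hypomorph replicate 1 for 25 members (51.02%, against 27.7% of tested genes). It was hypomorph replicate 2 for 24 members (48.98%, against 53.82%). The lowest was control replicate 1 for 35 members (71.43%, against 55.85% of tested genes). It was control replicate 2 for 13 members (26.53%, against 23.44%). Without hypomorph replicate 1 the median relative change was 0.32, and 9 members were called at an adjusted p under 0.05 (against 1.46% of tested genes), namely Bub1, Bub1b, Ccnb2, Cenpf, Cenph, Cenpk, Ndc80, Spc25 and Top2a. Without hypomorph replicate 2 it was 0.43, and Cenph and Pttg1 were called (against 0.225%). These fits hold a single hypomorph array, which is assumed to vary like the controls.

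**Figure D2:**
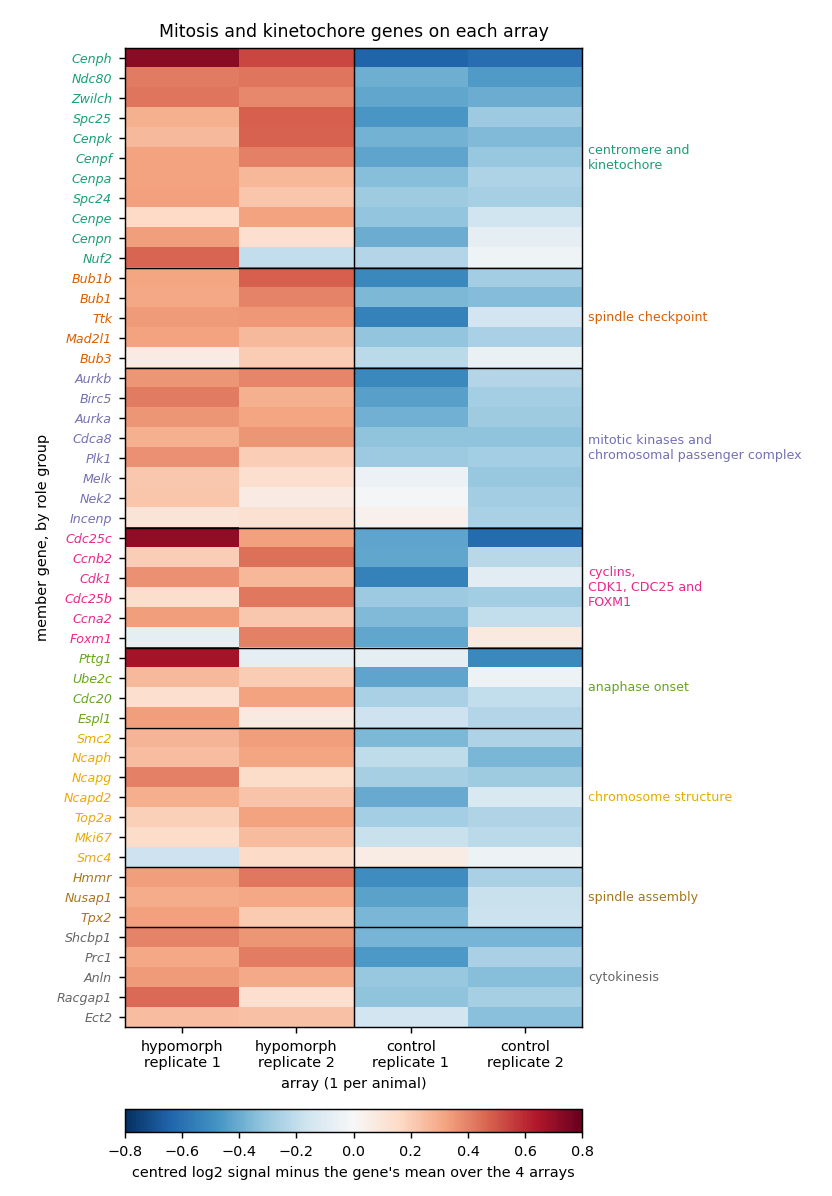
Each row is a member gene and each column an array; colour gives the centred log2 signal minus the gene's mean over the 4 arrays, red above and blue below. The hypomorph columns are red and the control columns blue for most rows, and Smc4, Foxm1 and Nuf2 are the 3 rows in which the groups overlap. Among all tested genes, both hypomorph arrays exceeded both control arrays for 51.7%.

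Kinetochore and centromere genes had the highest median of the 8 role groups, 0.52 above tested genes over 11 members, all of which lay above that median. Cenph, a subunit of the constitutive centromere network that sits on CENPA chromatin, had the largest change of all members. Its centred log2 signals were 7.21 and 7.02 in the hypomorphs and 5.85 and 5.88 in the controls. The change of 1.25 ± 0.21 (SE), or 2.38-fold, had a 95% confidence interval of 0.78 to 1.72 and an adjusted p of 0.0964. Its deposited signals, 192 and 122 against 45.8 and 54.0, were modest, and the array held 1 probe set for it. Cenpk, another subunit of that network, had signals of 8.67 and 8.89 against 8.04 and 8.07 (change 0.73 ± 0.15), without overlap. Cenpn, which recognises CENPA nucleosomes, differed by 0.47 ± 0.18, and its lowest hypomorph value of 7.76 was close to the higher control value of 7.55.

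The NDC80 complex, which binds microtubules directly, has 4 subunits, all of them members. Ndc80 stood at 8.58 and 8.59 in the hypomorphs and 7.77 and 7.71 in the controls, a change of 0.84 ± 0.14 (adjusted p 0.0964). The replicates of Ndc80 lay close together in both groups, with SDs of 0.011 and 0.043. Spc25 stood at 9.44 and 9.64 against 8.70 and 8.87 (change 0.76 ± 0.14, adjusted p 0.147), and its partner Spc24 at 8.90 and 8.80 against 8.29 and 8.31 (0.55 ± 0.14). Nuf2, the partner of NDC80 in its microtubule-binding head, stood at 8.89 and 8.22 against 8.19 and 8.39, so that its groups overlapped. Its change was 0.27 ± 0.20 (95% confidence interval -0.18 to 0.71). The differences between subunits were not tested.

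Among the other kinetochore genes, Zwilch, of the RZZ complex that recruits checkpoint proteins, stood at 8.04 and 7.99 against 7.19 and 7.21 (change 0.81 ± 0.16, adjusted p 0.148). Cenpf, a large protein of the outer kinetochore, stood at 9.48 and 9.56 against 8.73 and 8.85 (0.73 ± 0.13, adjusted p 0.142). Neither gene's groups overlapped. Cenpa, the centromeric histone itself, stood at 9.90 and 9.85 against 9.23 and 9.33 (0.59 ± 0.13, adjusted p 0.174). Cenpe, the kinetochore motor that brings chromosomes to the spindle equator, differed by 0.48 ± 0.14.

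Spindle checkpoint genes had a median of 0.48 above tested genes over 5 members. Bub1b, which encodes BUBR1, an inhibitor of the anaphase-promoting complex, stood at 9.71 and 9.87 in the hypomorphs against 8.87 and 9.11 in the controls (change 0.79 ± 0.14, adjusted p 0.125). Bub1, a kinase of the spindle checkpoint, stood at 9.34 and 9.42 against 8.67 and 8.68 (0.70 ± 0.13, adjusted p 0.147). The control animals nearly coincided for Bub1. Ttk, the kinase that starts checkpoint signalling and is also called MPS1, differed by 0.69 ± 0.19, and Mad2l1, the MAD2 protein that captures CDC20, by 0.58 ± 0.13. Bub3, the adaptor that holds BUB1 and BUBR1 at the kinetochore, was the exception at 11.32 and 11.46 against 11.04 and 11.20. Its change of 0.27 ± 0.14 lay 0.06 above tested genes.

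The mitotic kinases and the chromosomal passenger complex, which corrects wrong attachments and guides cytokinesis, had a median of 0.39 above tested genes over 8 members. Birc5, the passenger subunit survivin, stood at 10.39 and 10.26 against 9.54 and 9.70 (change 0.70 ± 0.13, adjusted p 0.147). Cdca8, the subunit borealin, stood at 9.92 and 9.99 against 9.32 and 9.32 (0.64 ± 0.13, adjusted p 0.148). Aurkb, the kinase of the complex, differed by 0.74 ± 0.15, and Aurka, the related kinase of the spindle poles, by 0.67 ± 0.14. Incenp, the scaffold that joins the complex to Aurora B, stood at 10.71 and 10.73 against 10.64 and 10.35 on its brightest probe set, a change of 0.22 ± 0.14 and 0.01 above tested genes. Plk1, which acts from mitotic entry to cytokinesis, differed by 0.56 ± 0.14, the centrosomal kinase Nek2 by 0.29 ± 0.15 and Melk by 0.35 ± 0.18.

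The cyclin, CDK1 and CDC25 genes had a median of 0.38 above tested genes over 6 members. Cdc25c, a phosphatase that activates CDK1, had the second largest change of all members at 1.04 ± 0.25, from signals of 6.86 and 6.48 against 5.73 and 5.53. It was measured by a probe set of a type (suffix x) that can match unrelated transcripts, with deposited signals of 150 and 82.9 against 41.9 and 42.0, and its other probe set differed by 0.38 ± 0.26. Cdc25b, the phosphatase active earlier, differed by 0.56 ± 0.16. Ccnb2, a B type cyclin, stood at 10.15 and 10.39 against 9.53 and 9.72 (0.64 ± 0.14, adjusted p 0.177). Cdk1 differed by 0.63 ± 0.16, where its control animals, at 9.24 and 9.70, lay further apart than its hypomorphs, at 10.15 and 10.05. Foxm1, a transcription factor that drives many genes of this set, had overlapping groups on its brightest probe set, at 6.97 and 7.44 against 6.62 and 7.12 (0.33 ± 0.23).

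Genes of anaphase onset had the lowest group median, 0.25 above tested genes over 4 members. Cdc20, the activator of the anaphase-promoting complex that the checkpoint restrains, stood at 11.09 and 11.27 against 10.69 and 10.75 (change 0.46 ± 0.14, adjusted p 0.242). Ube2c, the ubiquitin-conjugating enzyme of that complex, differed by 0.46 ± 0.15, and Espl1, the protease separase, by 0.40 ± 0.17. Pttg1, the securin that holds separase inactive, had a wide spread, at 10.99 and 10.26 in the hypomorphs and 10.25 and 9.81 in the controls, with a change of 0.59 ± 0.22. Its lower hypomorph value thus lay just above its higher control value.

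Chromosome structure genes had a median of 0.31 above tested genes over 7 members and held the single member below that median. Smc4 encodes a core ATPase subunit of condensin, the complex that compacts mitotic chromosomes. It stood at 12.34 and 12.66 in the hypomorphs and 12.56 and 12.47 in the controls, so the groups overlapped and the change was -0.02 ± 0.17 (95% confidence interval -0.38 to 0.35). Its 3 probe sets lay at -0.23, -0.14 and -0.03 relative to tested genes. Smc2, the ATPase that pairs with SMC4, stood higher without overlap, with a change of 0.60 ± 0.13 (95% confidence interval 0.32 to 0.89). The other condensin subunits also separated, with Ncaph at 0.57 ± 0.13, Ncapg at 0.55 ± 0.15 and Ncapd2 at 0.52 ± 0.14. Upward separation held for 51.7% of tested genes. The difference between Smc4 and its partners was not tested. Smc4 was also among the brightest members, with deposited signals of 6808 and 6184 against 5040 and 5414, and relative to tested genes of like signal it lay at -0.16. Top2a differed by 0.51 ± 0.14 and Mki67, the proliferation marker that coats mitotic chromosomes, by 0.39 ± 0.14.

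Spindle assembly genes had a median of 0.40 above tested genes over 3 members. Hmmr, a microtubule-associated protein of the spindle, had deposited signals of 630 and 488 against 223 and 303 (log2 change 0.76 ± 0.15, adjusted p 0.147). Nusap1, which bundles spindle microtubules near chromatin, stood at 10.68 and 10.69 against 9.95 and 10.20 (0.61 ± 0.14, adjusted p 0.186). Tpx2, which activates Aurora A, differed by 0.54 ± 0.14. For each of the 3 the groups were apart with the hypomorphs higher, as for 51.7% of tested genes.

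Cytokinesis genes had a median of 0.43 above tested genes over 5 members, and all 5 separated upward, against 51.7% of tested genes. Shcbp1, a protein of the midbody, stood at 9.35 and 9.31 against 8.58 and 8.58 (change 0.75 ± 0.13, adjusted p 0.114). Prc1, which crosslinks the microtubules of the central spindle, stood at 8.96 and 9.06 against 8.19 and 8.39 (0.72 ± 0.14, adjusted p 0.148). Ect2, the exchange factor that activates RhoA at the cell equator, stood at 9.59 and 9.58 against 9.19 and 9.01 (0.48 ± 0.13, adjusted p 0.226). Racgap1, of the centralspindlin complex that recruits ECT2, differed by 0.59 ± 0.15 and Anln, the actin-binding scaffold of the contractile ring, by 0.64 ± 0.14.

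**Figure D3:**
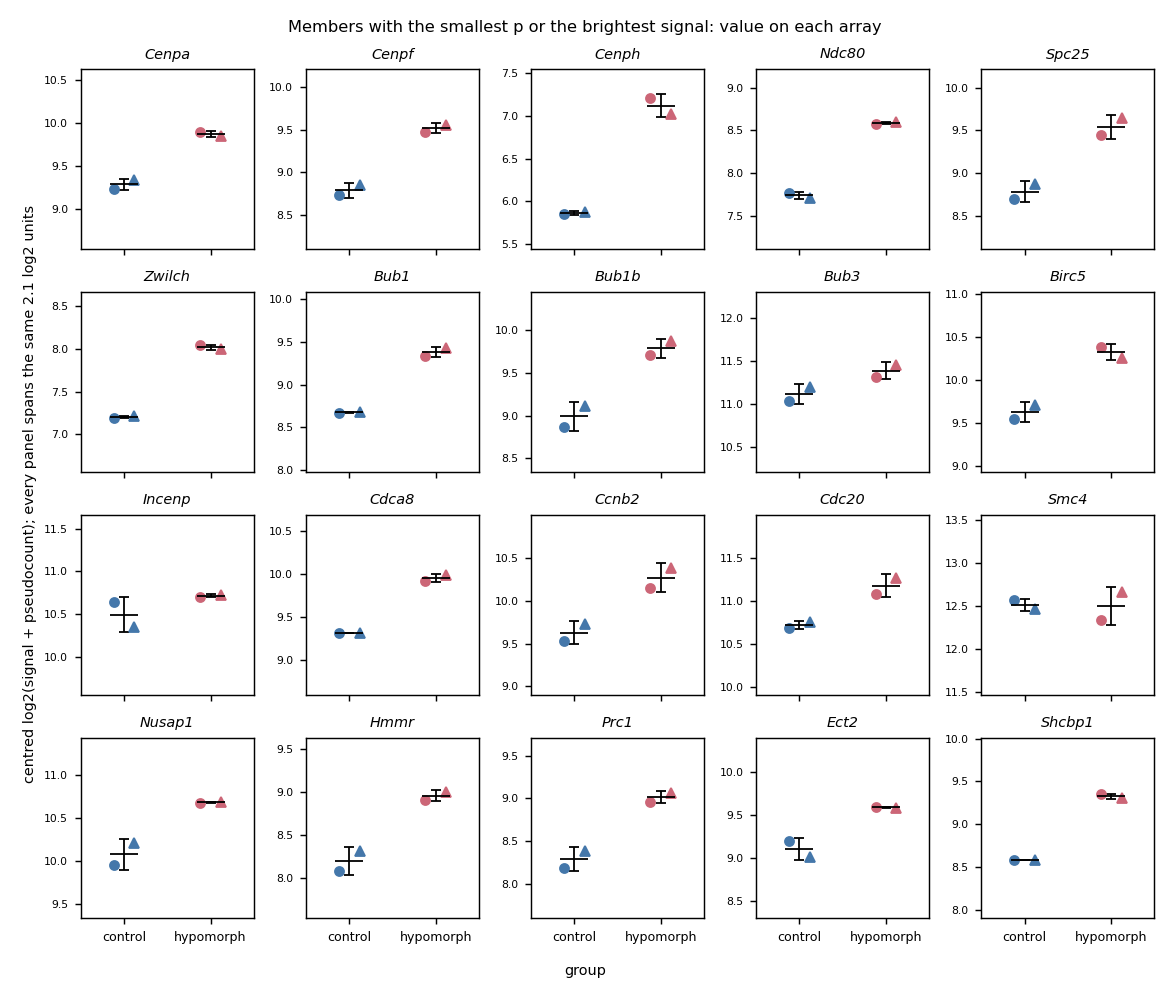
Centred log2 signal of 20 members, those with the 12 smallest p-values, the brightest of each role group and any below the median of tested genes; circles are replicate 1, triangles replicate 2, and the black bar and whiskers give the mean and SD of 2 arrays. The groups are apart in 19 of the 20 panels, and overlap for Smc4. Choosing panels by small p favours separation, so this count says nothing about the members as a set. Among all tested genes, both hypomorph arrays exceeded both control arrays for 51.7%.

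Further probe sets of the same genes mostly lay on the same side. Of the 49 members 32 had more than 1 probe set, with 60 further ones, of which 51 were bright enough to be tested. Of these 51, 40 lay above the median of tested genes, 42 lay on the same side of it as the main probe set, 38 separated upward, and none was called in limma. On their brightest probe set, 51.7% of tested genes separated upward, which includes the general shift of 0.21. With arrays centred on the tested probe sets that share was 24.1%, and the 51 were not counted again there. Their median was 0.27 above tested genes. The smallest adjusted p among all member probe sets belonged to the second one of Ccna2, the cyclin of S phase and mitotic entry, at 0.0504. Its deposited signals were 1435 and 1027 in the hypomorphs against 512 and 551 in the controls, a change of 0.86 ± 0.13, where the brightest Ccna2 probe set differed by 0.54 ± 0.13.

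Probe sets of 1 gene disagreed in both directions. Smaller values on a further probe set were found for Cenpa (-0.05 ± 0.31), Spc25 (0.19 ± 0.29), Cenpe (0.20 ± 0.21) and Bub1 (0.16 ± 0.29), each dimmer than the main one, and with overlapping groups except for Bub1. With all probe sets of a gene averaged, the change was 0.47 for Spc25 and 0.43 for Bub1. The main probe sets of Bub1b and Prc1 carry the suffix s, of a type that can match several transcripts, and without such probe sets the changes were 0.49 for Bub1b and 0.37 for Prc1. Those of Cdca8, Pttg1 and Bub3 carry the suffix s too, and those of Aurkb, Cdc20 and Ncaph the suffix x. Some members with small changes on the brightest probe set had larger ones on others. The main Incenp probe set is of a type (suffix x) whose probes can match unrelated transcripts, and the other 3 tested ones differed by 0.52 ± 0.13, 0.45 ± 0.20 and 0.47 ± 0.25. For Nek2, whose main probe set (suffix s) can match several transcripts, the second differed by 0.63 ± 0.18. Both further tested Foxm1 probe sets separated, at 0.60 ± 0.20 and 0.66 ± 0.20. Bub3 gave lower values on others, with 3 of its 4 further probe sets at -0.07 ± 0.19, -0.05 ± 0.20 and -0.13 ± 0.24, all with overlapping groups. Of the further Cdc20 probe sets, 1 differed by 1.24 ± 0.24 and the other by 0.58 ± 0.13. The former carries the suffix x and was dim, with deposited signals of 158 and 95.5 against 34.1 and 46.4.

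Medians of the other pathway lists also lay above tested genes, by less than that of the members. Every list also held genes below the median of tested genes. The lowest stood at -0.68 among other G2 and M phase genes, -0.43 in cohesin and -0.41 in the kinetochore list. The genes named from each list are the 2 with its smallest unadjusted p in limma. Of 32 further kinetochore and centromere genes 27 lay above the median of tested genes, with a median of 0.25, and 17 had an unadjusted p under 0.05. That share is to be read against the 18.3% of tested genes higher at this threshold, which includes the general shift of 0.21 and was 4.38% with arrays centred on the tested probe sets. The same holds for the counts of the next 4 lists. Cenpl, a neighbour of CENPN in the centromere network, differed by 0.62 ± 0.15 and Ska1, of the complex that tracks microtubule ends, by 0.70 ± 0.17 (adjusted p 0.196 for both). Of 30 other G2 and M phase genes 25 lay above, with a median of 0.21, and 20 had an unadjusted p under 0.05. Aspm, a spindle pole protein, differed by 0.71 ± 0.14 and Depdc1a by 0.72 ± 0.14 (adjusted p 0.147 for both).

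Subunits and regulators of the anaphase-promoting complex had 12 of 15 above and a median of 0.15, with 8 at an unadjusted p under 0.05. Among them Fzr1, the activator used from late mitosis into G1, differed by 0.59 ± 0.16 and Fbxo5, the inhibitor EMI1, by 0.46 ± 0.13. Cohesin genes had 9 of 14 above and a median of 0.07, with 7 at an unadjusted p under 0.05. That median lay inside the quartiles of all tested genes, -0.14 and 0.12. The largest cohesin changes were those of Esco2, an acetyltransferase for cohesin in S phase (0.56 ± 0.15), and Cdca5, which encodes sororin (0.52 ± 0.13). Genes of S phase had 25 of 29 above and a median of 0.21, with 20 at an unadjusted p under 0.05, including Mcm3, a subunit of the replicative helicase (0.67 ± 0.13), and Rfc4, a clamp loader subunit (0.63 ± 0.13). No gene of these 5 lists was called, in either direction, and none was lower at an unadjusted p under 0.05. Both hypomorph arrays lay below both control arrays for 1 cohesin gene and 1 other G2 and M phase gene, against 4.93% of tested genes. They lay above both for 24 of 32 kinetochore, 14 of 15 anaphase-promoting complex and 12 of 14 cohesin genes. The same held for 23 of 30 other G2 and M phase and 27 of 29 S phase genes. Among tested genes that share was 51.7%, which includes the general shift. Whether the lists differ from the members was not tested.

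**Figure D4:**
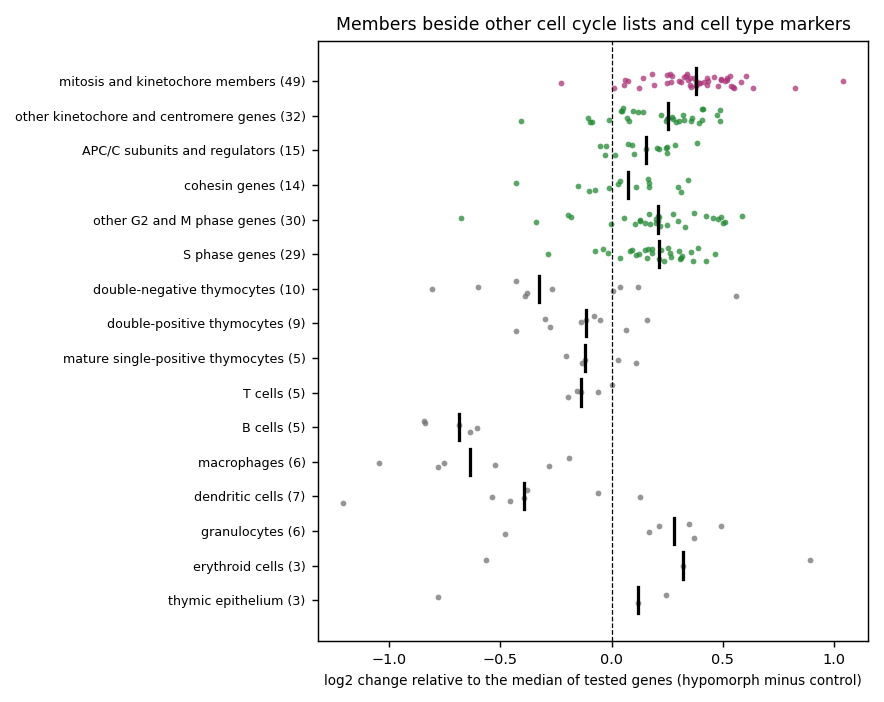
Change relative to the median of tested genes for the tested genes of each list, 1 point per gene (number in brackets) with a black bar at the list's median; vertical scatter within a list has no meaning. The members (top) have the highest median at 0.38, the other 5 cell cycle lists lie between 0.07 and 0.25, and lists of thymocyte stages lie below 0.

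Markers of thymocyte stages had lower medians than the members. Double-negative genes, the markers of early precursors, had 4 of 10 above the median of tested genes and a median of -0.33, with signals summed over the list, after each array was scaled to a common median, of 1886 and 1898 in the hypomorphs and 1863 and 1684 in the controls. Without that scaling the sums were 2516 and 1804 against 1521 and 1601. Kit, the stem cell factor receptor of the earliest precursors, had the highest change of the 10 relative to tested genes, at 0.56 (adjusted p 0.291 in limma). Il2ra, which marks the stages before the proliferative burst, stood at -0.38 with overlapping groups. Neither gene was chosen for mention beforehand, and 6 of the 10 lay below the median of tested genes. Double-positive genes had 2 of 9 above and a median of -0.12, and mature single-positive genes 2 of 5 and -0.12. The part of stage composition in the members' difference was not tested.

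Other cell types that can divide gave the following values. Of 9 erythroid markers 7 were on the array, and 6 of these stayed under a signal of 50 on every array, with Alas2 between 2.66 and 10.1 and Klf1 between 0.986 and 13.3. The summed erythroid signal, scaled in the same way, was 766 and 736 against 553 and 548. It came mostly from the transferrin receptor gene Tfrc (deposited signals 869 and 588 against 344 and 449), which dividing cells of many kinds express. Of the 3 erythroid genes bright enough to be tested, 2 lay above the median of tested genes and 1 below. Their median was 0.32 relative to tested genes, with a range of -0.56 to 0.89. B cell genes had 0 of 5 above and a median of -0.69, with scaled sums of 406 and 427 against 540 and 667. Macrophage genes had 0 of 6 and -0.64 (539 and 325 against 605 and 499), and dendritic cell genes 1 of 7 and -0.39 (2335 and 2499 against 3104 and 2827). Granulocyte genes had 5 of 6 above and a median of 0.28, with scaled sums of 2165 and 3696 in the hypomorphs and 655 and 5811 in the controls, so the control animals lay at both ends. Thymic epithelial genes had 4 of 6 under a signal of 50 on every array, with scaled sums of 241 and 176 against 182 and 204. The part of these cells in the members' difference was not tested.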

How the data were processed

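Total RNA of total thymocytes was hybridised to Affymetrix arrays, 1 for each animal. The authors deposited linear signal intensities made with GCOS, per the submitters' processing notes. The sources used here give neither the GCOS version nor its scaling or detection calls, so no probe set could be called absent. Direction follows the labels, 1 colour per array. After 64 control probe sets were left out, 45037 remained, of which 34945 carried 1 symbol, 932 several and 9160 none. Symbols were updated by gene ID. Values were analysed as log2(signal + 2.29), the 10th percentile of signals being the pseudocount, and centred per array. The 22519 probe sets with a mean at or above the median were tested, without covariates, with limma 3.58.1 in R 4.3.3 (two-sided, variance trend, Benjamini-Hochberg over all of them). The procedure was checked on simulated data. At most 1 value was identical between any pair of arrays. Members with values on every array are the 12 with the smallest p, the brightest of each role group and those below the median of tested genes. Cdc25c, Cenpk, Cdk1, Nuf2, Spc24, Foxm1, Pttg1, and some further members and probe sets were described after their values were seen. The marker genes named singly, such as Kit and Il2ra, were not chosen beforehand either. The members and lists were chosen with earlier results of these data known, so nothing here is independent of those. Alternatives were other normalizations, pseudocounts, filters, variance models and probe set choices, the replicate number as a block, and leaving out each array.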

Additional observations from a re-analysis of the deposited data

How the results depend on the processing

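The members' median relative to tested genes lay between 0.32 and 0.44 in all alternatives. Changes of single genes, which contain the general shift, depended on the scaling. With quantile normalization, where tested genes had a median of 0.02, the change was 0.24 for Ect2, 0.35 for Cenpa, 0.27 for Cdc20, 0.026 for Incenp and 1.12 for Cenph, with limma adjusted p from 0.486 to 0.979 over the 20 named members. The median change of the members relative to tested genes was 0.44 without the filter on dim probe sets, where the tested genes include dimmer ones, and 0.32 to 0.43 when single arrays were left out. The number called at an adjusted p under 0.05 was 1 on uncentred values (Cenph) and 0 to 9 when single arrays were left out, and 0 in the other alternatives, which include the quantile and cyclic loess normalizations. The number above the median of tested genes stayed between 44 and 48. Smc4, near 0 before subtraction, changed sign to 0.31 on uncentred values, 0.037 with a pseudocount set to the 25th percentile of signals and 0.079 when its probe sets were averaged, and ranged from -0.17 to 0.14 when single arrays were left out. When probe sets with suffix x or s were not used, an alternative added after the data were seen, Bub3 was at -0.070, Bub1b at 0.49 and Prc1 at 0.37. With the replicate number as a block 0 members were called, against 0.0391% of tested genes. In that fit 42 were higher at an unadjusted p under 0.05 in limma, against 19.3% of tested genes, and the median of 0.38 did not move. Deviations of same-numbered arrays had a correlation of 0.08 over tested probe sets, and the labels do not say that the numbers pair the animals. With 2 arrays per group and unknown detection calls, precision for dim members such as Cenph and Cdc25c is limited.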
